A study of Homo sapiens with 6 samples.

Results

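The transcript levels of 10 genes of the interleukin-6 family and its signalling chain were examined in ovarian cancer cells before paclitaxel, as polyploid giant cancer cells (PGCCs), and as the daughter cells that budded from them. The genes were the cytokines IL6, LIF and IL11, the receptor chains IL6R, IL6ST, LIFR and OSMR, the kinase JAK1, the transcription factor STAT3 and the inhibitor SOCS3. They were picked by symbol, and all 10 were found among the 59008 gene symbols of the deposited table. Its values are in TPM, a transcript abundance scaled for transcript length and within each library. All 10 averaged 1 TPM or more over the 6 libraries, as did 14988 genes in all, which are called the tested genes here. IL11, with a mean TPM of 1.88, passed that filter only through the PGCCs of Hey.

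Hey and SKOV3 are established human ovarian cancer cell lines, and each gave 1 library of parental cells, 1 of PGCCs and 1 of daughter cells. Parental cells were untreated. PGCCs had been given paclitaxel, a microtubule-stabilizing drug that halts cells in mitosis, at 500 nM for 16 h and had then recovered for 3 days. The title of the SKOV3 PGCC library gives day 7 instead. Daughter cells had received the same treatment followed by 30 days of recovery, and each daughter library is labelled clone 1, so it stands for a single clone. Hey was grown in MEM Eagle and SKOV3 in RPMI-1640, so line and medium cannot be told apart. No condition has a replicate. The values therefore carry no error, no p can be given for 1 library against another, and a gene is called higher or lower at a difference of at least 2-fold in log2(TPM + 1).

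The libraries matched their lines in part. ERBB2, the receptor gene amplified in SKOV3, was between 1127 and 1778 TPM in SKOV3 and between 8.20 and 14.1 TPM in Hey. The epithelial keratins KRT8, KRT18 and KRT7 and the Muellerian factor PAX8 were high in all 6 libraries, whereas EPCAM stayed between 0.369 and 1.43 TPM in Hey and MUC16 did not pass 1.59 TPM anywhere. Leukocyte markers summed to at most 0.756 TPM over 6 genes, with CD3E and MS4A1 listed at 0 throughout. In Hey the endothelial cadherin CDH5 was between 33.2 and 48.5 TPM, with PECAM1 and VWF below 0.273 TPM. The summed fibroblast markers were 3.56 TPM in Hey PGCCs and at most 0.302 TPM in the other Hey libraries, and between 12.6 and 28.2 TPM in SKOV3. The mitochondrial share of the TPM was 2.64% for parental Hey, 12.3% for the Hey PGCCs and 7.37% to 14.8% for the others. These are bulk libraries, in which fewer cells of a type and less RNA per cell cannot be told apart.

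Cytokines of this family signal through the shared receptor chain gp130, which IL6ST encodes. IL6 and IL11 first bind their own alpha chains (IL6R and IL11RA) and then pair gp130 with itself, LIF pairs gp130 with LIFR, and oncostatin M pairs it with OSMR or LIFR. The receptor-bound kinase JAK1 then phosphorylates STAT3, which enters the nucleus and induces its targets, among them SOCS3, the protein that shuts the receptor down. In ovarian cancer IL6 is known as a cytokine of tumour cells and ascites, and its gene is a textbook target of the factors NF-kappaB and C/EBP-beta. Transcript levels do not report STAT3 phosphorylation, which the libraries did not measure.

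The promoters of IL6 and IL11 are shown because these genes had the largest differences among the 10 in Hey PGCCs. Each sequence is the 250 bases before the RefSeq start site on GRCh38.p14. In IL6 (chr7:22726950-22727199, plus strand) the capitals mark a match to the C/EBP motif TTGCNCAA, starting 155 bases before the start site, and a match to a kappaB motif of 10 letters (GGG, any 2 bases, TTTCC), 73 bases before it. In IL11 (chr19:55370464-55370713, minus strand) they mark a match to the AP-1 motif TGANTCA, 96 bases before it.
IL6: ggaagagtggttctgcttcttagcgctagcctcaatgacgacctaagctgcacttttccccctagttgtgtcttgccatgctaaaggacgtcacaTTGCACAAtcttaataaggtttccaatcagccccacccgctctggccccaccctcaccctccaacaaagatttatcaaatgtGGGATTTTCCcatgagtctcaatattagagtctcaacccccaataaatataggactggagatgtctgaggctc
IL11: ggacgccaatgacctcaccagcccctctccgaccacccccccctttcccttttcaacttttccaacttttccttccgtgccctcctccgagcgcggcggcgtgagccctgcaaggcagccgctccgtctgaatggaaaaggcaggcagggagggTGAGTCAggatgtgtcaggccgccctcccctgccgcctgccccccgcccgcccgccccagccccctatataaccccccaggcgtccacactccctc

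Both strands were searched, and the motif pairs share no bases in these windows. Of all 35116 RefSeq windows of this length, 2.27% held the C/EBP motif, 1.73% the kappaB motif and 6.57% the AP-1 motif. The windows found for 9 of the 10 genes were also searched for the STAT motif TTCNNNGAA, which 6.57% of all windows hold. Only windows of LIFR had a match, TTCCTTGAA 165 bases and TTCATCGAA 182 bases before 2 of its start sites. LIF had no entry. The SOCS3 windows lay before start sites chr17:78360925 and chr17:78359667 on the minus strand. Neither covered the bases just before the GENCODE gene end at 78360077, so a STAT motif there was not searched for. A match describes letters and not a bound site.

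The cytokine genes showed the clearest differences. IL6 (ENSG00000136244.12, chr7:22725884-22732002, plus strand) was at 8.74 TPM in the parental library of Hey, 168 TPM in its PGCC library and 8.69 TPM in its daughter library. In SKOV3 it was at 10.5, 28.8 and 19.2 TPM in the same order. The PGCC library was thus the highest of each line, and the parental levels of the lines lay close together while the PGCC levels did not. Over parental cells IL6 was higher by 4.12 on the log2 scale in Hey PGCCs, and 0.254% of the tested genes were higher by at least as much. In SKOV3 PGCCs it was higher by 1.37, and 3.75% of the tested genes were higher by at least as much. In Hey PGCCs IL6 was the most abundant of the 10 transcripts, above 95.4% of the tested genes. In the parental cells of either line its level exceeded that of 46.1% to 46.9% of them.

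LIF (ENSG00000128342.5, chr22:30240453-30246759, minus strand), a cytokine known for keeping mouse embryonic stem cells undifferentiated, was at 5.85 TPM before treatment, 24.3 TPM as PGCCs and 9.36 TPM as daughter cells in Hey. The SKOV3 values were 18.0, 33.7 and 25.1 TPM. On the deposited values the order of the states was the same in both lines, PGCCs above daughter cells above parental cells. SKOV3 was then the higher line in each state. With the GC trend described further on removed, the Hey minus SKOV3 difference in PGCCs turned from -0.46 to 0.53. The difference between daughter and parental cells of SKOV3 went from 0.46 to 0.10. The difference from parental cells was 1.88 in Hey PGCCs, called, and 0.87 in SKOV3 PGCCs, below 2-fold.

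IL11 (ENSG00000095752.7, chr19:55364382-55370463, minus strand) encodes a cytokine that also signals through gp130. It was at 0.859, 6.93 and 0.831 TPM in Hey and at 1.35, 0.721 and 0.589 TPM in SKOV3, in the order parental, PGCC and daughter. Only the Hey PGCC library stood out, and in SKOV3 the PGCC value was below the parental value. PGCCs minus parental cells gave 2.09 in Hey and -0.45 in SKOV3.

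**Figure D1:**
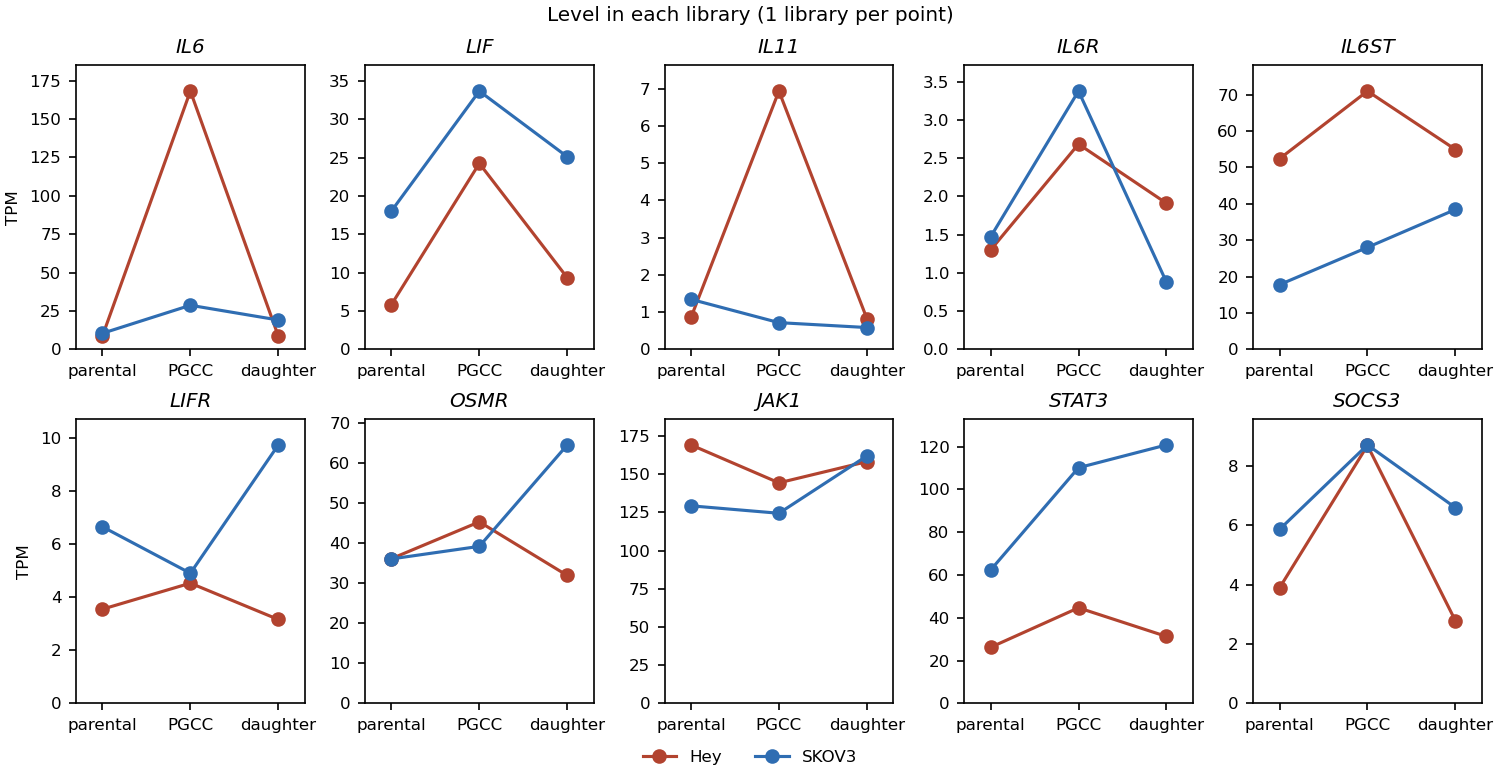
TPM of each of the 10 genes (linear y axis from 0, scaled per gene) in parental cells, PGCCs and daughter cells, 1 library per point, with Hey in red and SKOV3 in blue. In Hey, IL6 (168 TPM), LIF (24.3 TPM) and IL11 (6.93 TPM) peak in PGCCs, and in SKOV3 the daughter library is the highest for IL6ST (38.4 TPM), LIFR (9.73 TPM), OSMR (64.4 TPM), STAT3 (121 TPM) and JAK1 (162 TPM).

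The balance between IL6 and LIF shifted most in Hey PGCCs. The ratio of IL6 to LIF, on the TPM scale, was 1.496 for the parental library of Hey, 6.93 for its PGCC library and 0.929 for its daughter library, and 0.585, 0.855 and 0.764 for those of SKOV3. On the deposited values IL6 was thus above LIF in parental cells and PGCCs of Hey, and below it in every SKOV3 library and in Hey daughter cells. Only the Hey PGCC ratio was past 2-fold, so the order in the other libraries cannot be separated. In SKOV3 PGCCs the deposited differences from parental cells were 1.37 for IL6 and 0.87 for LIF. With the GC trend described further on removed they were 1.74 and 0.28.

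None of the 4 receptor chains reached 2-fold between PGCCs and parental cells in either line. IL6R (ENSG00000160712.13, chr1:154405193-154469450, plus strand), which gives a cell its own response to IL6, was the scarcest receptor transcript in all 6 libraries. Its level was 1.30, 2.69 and 1.91 TPM in Hey and 1.47, 3.38 and 0.881 TPM in SKOV3, in the order parental, PGCC and daughter. The PGCC library was the highest of each line, by 0.68 over parental cells in Hey and by 0.82 in SKOV3. From PGCCs to daughter cells of SKOV3 the difference was -1.22, which was called.

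IL6ST (ENSG00000134352.21, chr5:55935095-55995022, minus strand), the gp130 gene, was at 52.4, 70.9 and 54.9 TPM in Hey and at 17.8, 28.04 and 38.4 TPM in SKOV3. It was higher in Hey than in SKOV3 in every state. In PGCCs it was above parental cells by 0.43 in Hey and 0.63 in SKOV3. In SKOV3 daughter cells it was 1.07 above parental cells, just past the threshold, while in Hey daughter cells the difference was 0.07.

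LIFR (ENSG00000113594.10, chr5:38474668-38608354, minus strand), the LIF receptor chain, was at 3.55, 4.53 and 3.16 TPM in Hey and at 6.65, 4.90 and 9.73 TPM in SKOV3. OSMR (ENSG00000145623.13, chr5:38845858-38945596, plus strand), the oncostatin M receptor chain, was at 36.1, 45.2 and 31.9 TPM in Hey and at 35.998, 39.1 and 64.4 TPM in SKOV3. For both chains the highest Hey library was that of PGCCs and the highest SKOV3 library that of daughter cells. Their PGCC differences were 0.28 and 0.32 in Hey and -0.375 and 0.12 in SKOV3. Oncostatin M itself was hardly seen, with OSM at no more than 0.190 TPM in any library.

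The proportions of the chains differed between states. With the states in the same order, IL6ST exceeded IL6R by a factor of 40.3, 26.4 and 28.7 in Hey and of 12.1, 8.30 and 43.6 in SKOV3. The ratio was thus lowest in the PGCCs of each line on the deposited values. In SKOV3 PGCCs the deposited differences from parental cells were 0.63 for IL6ST and 0.82 for IL6R. With the GC trend described further on removed they were 1.12 and 0.56, so IL6ST then rose more than IL6R. The ratio of OSMR to LIFR ran from 9.99 to 10.2 in Hey and from 5.41 to 7.99 in SKOV3. The IL6 transcript was below that of IL6ST in 4 of the libraries. In Hey PGCCs the IL6 transcript was above that of IL6ST by a factor of 2.37. In SKOV3 PGCCs the factor was 1.03, which is within 2-fold, so the order of this pair cannot be separated there.

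Of the intracellular members, JAK1 (ENSG00000162434.14, chr1:64833223-65067754, minus strand), the main kinase of gp130, differed least. It was at 169, 144 and 158 TPM in Hey and at 129, 124 and 162 TPM in SKOV3, and its largest difference between states was 0.38 on the log2 scale, between daughter cells and PGCCs of SKOV3. It was the only member below its parental value in the PGCCs of both lines, by differences of -0.23 in Hey and -0.05 in SKOV3.

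STAT3 (ENSG00000168610.16, chr17:42313324-42388540, minus strand) was at 26.2, 44.7 and 31.3 TPM in Hey and at 62.3, 110 and 121 TPM in SKOV3. Each SKOV3 library was above every Hey library. Compared with parental cells STAT3 was higher by 0.75 in Hey PGCCs and 0.81 in SKOV3 PGCCs, alike in size and below 2-fold in both. In daughter cells the differences were 0.25 and 0.94, so that in SKOV3 the daughter cells stood near the PGCC level.

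SOCS3 (ENSG00000184557.4, chr17:78356778-78360077, minus strand), the feedback inhibitor, was at 3.89, 8.69 and 2.78 TPM in Hey and at 5.86, 8.71 and 6.59 TPM in SKOV3. The PGCC libraries were the highest of their lines and nearly equal on the deposited values, a difference between lines of -0.0028 that became 1.12 with the GC trend described further on removed. The difference from parental cells was 0.99 in Hey, just short of 2-fold, and 0.50 in SKOV3, where the sign turned (-0.25) with that trend removed. From PGCCs to daughter cells of Hey it was -1.36, which was called. STAT3 transcripts exceeded SOCS3 transcripts by a factor of 6.73, 5.14 and 11.2 in Hey and of 10.6, 12.6 and 18.3 in SKOV3, highest in the daughter cells of each line on the deposited values. The SKOV3 factors lie within 2-fold of each other, as do 6.73 and 11.2 in Hey, so their order cannot be separated. With the GC trend removed, SKOV3 daughter cells minus PGCCs gave 0.015 for STAT3 and 0.066 for SOCS3.

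Ranked by TPM, JAK1 led the 10 genes in every library except Hey PGCCs, where IL6 (168 TPM) and JAK1 (144 TPM) stood side by side. At the other end, IL11 was last in 5 libraries and IL6R in Hey PGCCs. With 1 library per condition, neighbours in this order that lie within 2-fold of each other, such as OSMR (45.2 TPM) and STAT3 (44.7 TPM) in Hey PGCCs, cannot be separated. Antisense transcripts overlap some members, and whether the reads were assigned by strand is not stated. IL6-AS1, LIF-AS1, LIFR-AS1, OSMR-AS1 and IL6R-AS1 did not exceed 1.67 TPM in any library, and the IL6ST pseudogene IL6STP1 did not exceed 0.051 TPM.

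In Hey PGCCs 3 of the 10 genes (IL6, LIF and IL11) were called higher than in parental cells and 0 lower, against 12.9% of the tested genes called in either direction, 7.67% higher and 5.22% lower. IL11 entered the tested genes only through that PGCC library, so its count there follows in part from the filter. In SKOV3 PGCCs 1 (IL6) was called higher and 0 lower, where 14.9% of the tested genes were called, 9.94% higher and 4.96% lower, so the SKOV3 count is near that of the background. The median difference over the 10 genes was 0.71 in Hey and 0.56 in SKOV3, beside 0 and 0.017 over the tested genes. After GC and length removal the members' medians were 0.80 and 0.24. IL6 was the only member called in both lines, which 125 of the 14988 tested genes were in the upward direction. Without a threshold, 7 members were above their parental value in both lines, JAK1 was below in both, and LIFR and IL11 had opposite signs. Of the tested genes 25.2% were above in both lines, 22.3% below in both and 48.6% of opposite sign.

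**Figure D2:**
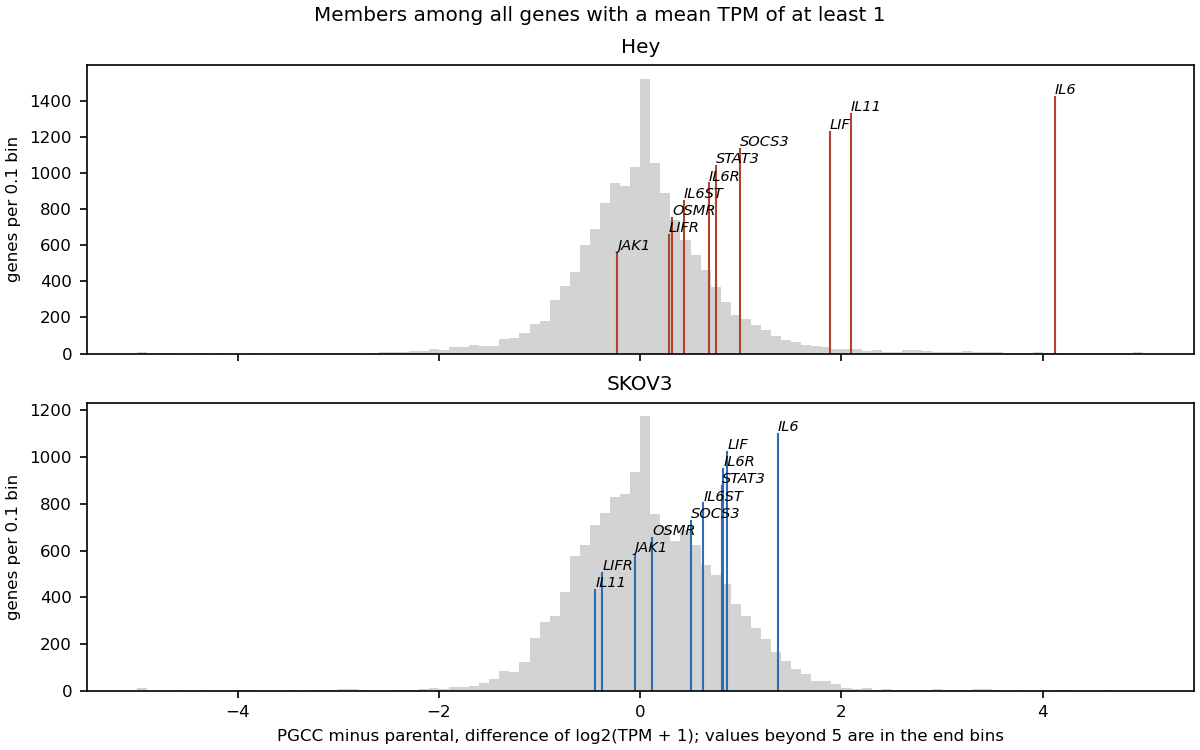
Histogram of the difference of log2(TPM + 1) between PGCCs and parental cells over the 14988 tested genes (grey, y axis in genes per 0.1 bin), for Hey above and SKOV3 below, with a vertical line for each of the 10 genes (line height only spaces the labels). IL6 stands at 4.12 in Hey and 1.37 in SKOV3, and LIF and IL11 leave the bulk of the genes only in Hey.

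Several library features moved with these differences, and their part in them was not tested. The summed TPM of 5 genes of dividing cells (MKI67, TOP2A, CCNB1, CDK1 and AURKB) was 724 before treatment, 155.8 as PGCCs and 951 as daughter cells in Hey, and 1684, 802 and 916 in SKOV3. With mitochondrial genes left out, the median difference of the tested genes in Hey PGCCs was 0.11, the calls were 1453 higher and 591 lower in place of 1149 and 782, and SOCS3 was called as well, at 1.13. In SKOV3 PGCCs the differences followed the GC content of the transcripts, with a Spearman correlation of 0.72 over 13468 genes of the same 2 libraries, while that in Hey was -0.045. The median SKOV3 difference was -0.53 for genes under 40% GC and 0.93 for genes at 60% GC or more.

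The GC content of the 10 genes ran from 36.5% in IL6ST to 59.99% in SOCS3, so the trend in SKOV3 bears on them unequally. After removal of this trend and that of length, the SKOV3 PGCC difference was 1.74 for IL6 (42.5% GC) and 1.12 for IL6ST, both called. It was 0.28 for LIF (57.1% GC), -0.25 for SOCS3, 0.06 for LIFR and -0.93 for IL11. The signs for SOCS3 and LIFR were thus turned. IL6R (0.56), STAT3 (0.66), OSMR (0.20) and JAK1 (-0.02) kept theirs. In Hey the removal left the same 3 genes called, IL6 at 3.98, LIF at 2.03 and IL11 at 2.16, and added SOCS3 at 1.08. Over the tested genes with a GC value, the SKOV3 calls were then 302 higher and 354 lower in place of 1490 and 744.

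**Figure D3:**
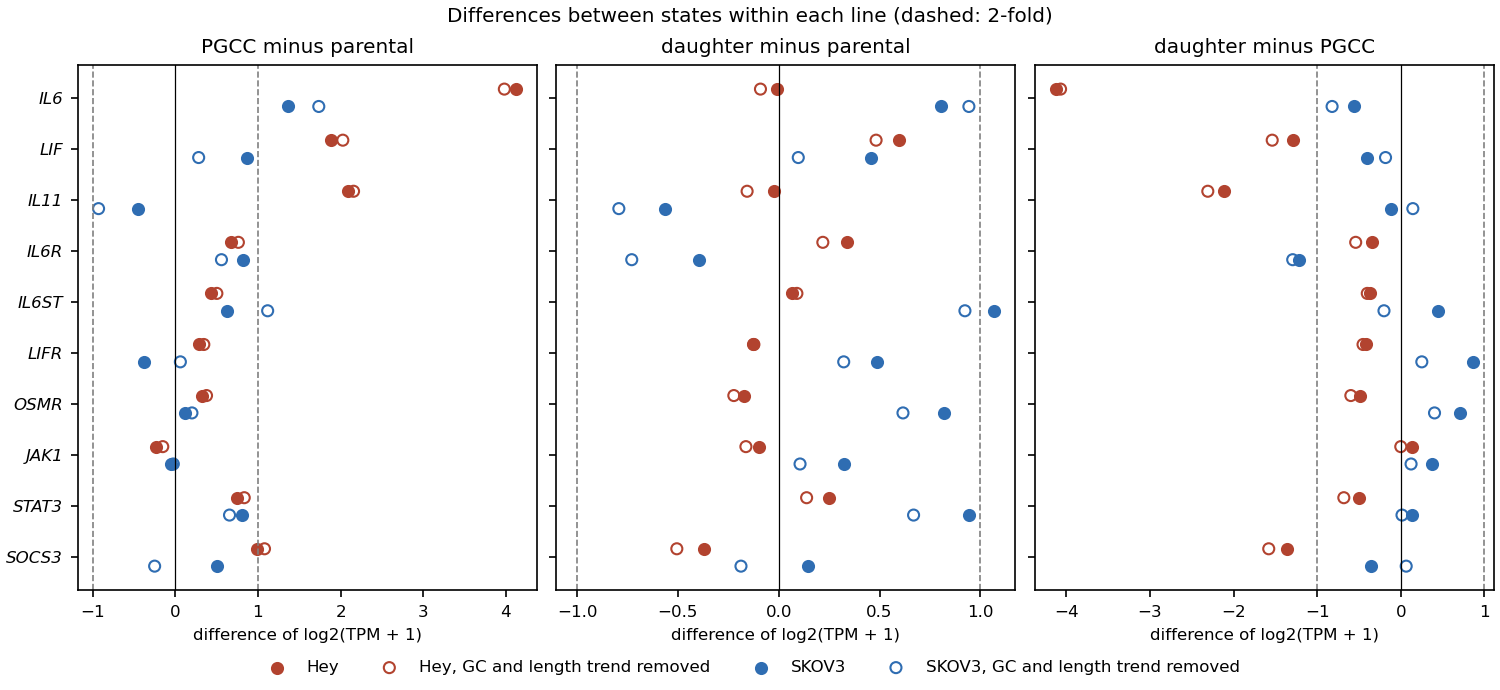
Difference of log2(TPM + 1) for each of the 10 genes between PGCCs and parental cells (left), daughter and parental cells (middle) and daughter cells and PGCCs (right), each panel with its own x axis. Filled points are the deposited values, open points the values with the GC and length trend removed, red is Hey, blue is SKOV3 and dashed lines mark 2-fold. The filled and open points lie close together in Hey, while in SKOV3 PGCCs LIF moves from 0.87 to 0.28 and IL6ST from 0.63 to 1.12.

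Between daughter and parental cells of Hey no member was called in either direction, where 10.0% of the tested genes were called, 6.31% higher and 3.73% lower, so a count of 0 of 10 is near the background, and the median difference over the members was -0.014 beside 0.050 over the tested genes. IL6 differed by -0.0074 and IL11 by -0.02, and LIF showed the largest difference at 0.60. Compared with Hey PGCCs, 4 members were called lower in daughter cells and 0 higher, against 18.1% of the tested genes called, 9.95% higher and 8.13% lower. These were IL6 (-4.13), IL11 (-2.11), SOCS3 (-1.36) and LIF (-1.29). IL11 entered the tested genes only through the Hey PGCC library, so its call follows in part from that filter. The receptor chains and STAT3 were also lower, by differences between -0.34 and -0.50, none of which was called.

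The SKOV3 daughter cells differed more from their parental cells. Of the 10 genes 1 (IL6ST) was called higher and 0 lower, against 21.5% of the tested genes called, 15.1% higher and 6.34% lower, so the count does not exceed the background. The median over the members was 0.47 beside 0.15 over the tested genes. After GC and length removal the members' median was 0.21. STAT3 (0.94), OSMR (0.82), IL6 (0.81), LIFR (0.49), LIF (0.46) and JAK1 (0.32) were higher without reaching 2-fold, and IL11 (-0.56) and IL6R (-0.39) were lower. The IL6ST call did not hold under median-ratio scaling (0.86), quantile normalization (0.91) or GC removal (0.92). Under median-ratio scaling the median over the tested genes was -0.015, with 1689 called higher and 1250 lower in place of 2267 and 950. Compared with SKOV3 PGCCs 1 member, IL6R, was called lower and 0 higher, against 23.9% of the tested genes called, 14.6% higher and 9.25% lower. There the members had no common direction, with a median of 0.0087 beside 0.12 over the tested genes.

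The 3 comparisons within a line share libraries, so their values are not independent. Taking the state of highest TPM, 9 members peaked in PGCCs and JAK1 in parental cells in Hey. In SKOV3 4 members peaked in PGCCs (IL6, IL6R, LIF and SOCS3), 5 in daughter cells (IL6ST, LIFR, OSMR, STAT3 and JAK1) and IL11 in parental cells. The cytokines IL6 and LIF, the alpha chain IL6R and the inhibitor SOCS3 thus peaked in PGCCs in both lines on the deposited values, although for SOCS3 in SKOV3 the sign against parental cells turned under GC removal. The share of tested genes peaking in each state was not computed, so the member counts have no background to be read against. The Hey PGCC library listed 25370 genes above 0 TPM, beside 19920 in parental and 20154 in daughter cells of Hey. Between daughter cells and PGCCs of SKOV3 the sign turned for IL6ST under GC removal, from 0.44 to -0.20, and STAT3 ran from -0.018 to 0.25 over the settings, so the peak in daughter cells does not hold under every setting for these genes.

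Between the lines, 3 members were called in parental cells, where 35.7% of the tested genes were, 11.5% higher in Hey and 24.2% lower. IL6ST was higher in Hey (1.51), and LIF (-1.48) and STAT3 (-1.22) were lower in Hey than in SKOV3. In PGCCs 4 members were called against 43.0% of the tested genes (13.4% higher in Hey and 29.6% lower), IL6 (2.51), IL11 (2.20) and IL6ST (1.31) higher in Hey and STAT3 (-1.28) lower. The IL11 call follows in part from the filter for tested genes, which IL11 passed only through the Hey PGCC library. The STAT3 call was lost under median-ratio scaling, quantile normalization and GC removal (-0.81), which also added SOCS3 at 1.12. In parental cells median-ratio scaling and quantile normalization each left 1 of the lower calls. In daughter cells 5 were called lower in Hey, namely STAT3 (-1.92), LIFR (-1.37), LIF (-1.33), IL6 (-1.06) and SOCS3 (-1.01), against 41.8% of the tested genes called, 12.3% higher and 29.5% lower. The median over the tested genes was itself -0.29, -0.35 and -0.38 in the 3 states. Median-ratio scaling brought it to -0.014, -0.082 and -0.025, and 2 members were then called in daughter cells. With GC removal STAT3 (-1.54) alone of the daughter cell calls remained, and IL6R was added as higher in Hey (1.04).

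Both lines were also fitted together with limma, with state and cell line as terms. With 2 residual degrees of freedom, the residual spread is the disagreement between the lines. The eBayes step then drew that spread toward a trend over all tested genes, so each SE and p rests on 7.335 degrees of freedom in total. At an adjusted p under 0.05 (Benjamini-Hochberg over 14988 genes), 0 of the 10 genes were called in any of the 3 comparisons of states. Between PGCCs and parental cells LIF differed by 1.37 (SE 0.427, limma p 0.0138 before and 1 after adjustment) and was higher in both lines on the deposited values. With the GC trend removed the LIF differences were 2.03 in Hey and 0.28 in SKOV3, and no limma fit used such values. IL6, also higher in both lines, had an unadjusted limma p of 0.00923. LIF and IL6 were the members with an unadjusted p under 0.05, which 2.73% of the tested genes had. For daughter cells against PGCCs IL6 alone had one, a difference of -2.34 (SE 0.783, limma p 0.0191, adjusted 0.908), and for daughter against parental cells there was none. Over all tested genes 3, 2 and 0 passed the adjusted threshold for PGCCs against parental cells, daughter against parental cells and daughter cells against PGCCs.

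Around the 10 genes, 74 further genes of the family and its pathway were listed, of which 55 averaged 1 TPM or more. In Hey PGCCs 7 of the 74 (9.46%) were called higher and 3 (4.05%) lower than in parental cells, beside 7.67% and 5.22% of the tested genes. The 74 include genes averaging under 1 TPM, which the tested genes do not, so the shares are not over like sets. Of the 55, which are over a like set, 6 were called higher and 3 lower in Hey PGCCs, and 9 and 1 in SKOV3 PGCCs. In SKOV3 PGCCs the counts over the 74 were 10 (13.5%) and 1 (1.35%), beside 9.94% and 4.96%, and with the GC and length trend removed they were 0 and 1. ICAM1, an adhesion molecule that both STAT3 and NF-kappaB induce, was the only one called in the same direction in PGCCs of both lines. It was at 12.3, 123 and 2.32 TPM in Hey and at 0.282, 2.49 and 27.0 TPM in SKOV3. The PGCC difference was 3.22 in Hey and 1.44 in SKOV3, where it was 0.96 with the GC trend removed.

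Of the 8 other ligands, only EBI3, a chain of interleukin-27, was called. It was at 0.334, 4.22 and 0.329 TPM in Hey and at 0.341, 0.762 and 6.04 TPM in SKOV3. It thus peaked in PGCCs of Hey and in daughter cells of SKOV3, with differences from parental cells of 1.97 and 2.39. Of the 4 other receptor chains, IL11RA, the alpha chain for IL11, was called higher in SKOV3 PGCCs (1.11, and 0.38 with the GC trend removed) and IL27RA in SKOV3 daughter cells (1.76). The protease ADAM17, which sheds IL6R from the cell surface, was at 34.7, 44.5 and 34.7 TPM in Hey and at 23.0, 19.7 and 57.8 TPM in SKOV3, and only the difference of 1.29 between daughter and parental SKOV3 cells was called against parental cells.

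The other JAK kinases (JAK2, JAK3 and TYK2) had no call against parental cells in either line. Among the 6 other STAT factors, STAT4 was called higher in Hey PGCCs (1.26, from 0.151 to 1.75 TPM) and STAT6 in SKOV3 PGCCs (1.21, and 0.69 with the GC trend removed). In SKOV3 daughter cells STAT5A (2.26), STAT5B (1.23) and STAT6 (1.22) were called higher than in parental cells, and with the GC trend removed only STAT5A (1.91) of the 3 was, with STAT5B at 0.91 and STAT6 at 0.87. STAT5A and STAT5B are close paralogs, so reads may have been divided between them with some uncertainty.

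Among the 15 inhibitors and phosphatases, SOCS2, a SOCS protein best known from growth hormone signalling, was lower in PGCCs than in parental cells, unlike the deposited values of SOCS3. It was at 48.3, 22.5 and 21.3 TPM in Hey and at 8.27, 4.50 and 2.59 TPM in SKOV3. Parental cells were the highest library of each line. Daughter minus parental cells gave -1.14 in Hey and -1.37 in SKOV3, called in both. In PGCCs it was -1.07 and -0.75, called in Hey. PIAS4 (1.24) was called higher and SOCS4 (-1.17) lower in SKOV3 PGCCs, and with the GC trend removed neither was past 2-fold. In Hey daughter cells the phosphatases PTPN1 (1.02) and PTPN2 (1.04) were called higher, PTPN1 no longer with the GC trend removed (0.92).

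Of the 18 STAT3 target genes, 2 were called higher and 2 lower in Hey PGCCs, 11.1% each way beside 7.67% and 5.22% of the tested genes. ICAM1 and CEBPD (1.16) were the higher ones, and BIRC5 (-2.29), the survivin gene, which is also a gene of dividing cells, and the immediate early gene FOS (-2.15) were the lower ones. In SKOV3 PGCCs 5 (27.8%) were called higher, beside 9.94% of the tested genes, led by BCL3 (1.61) and SBNO2 (1.59). With the GC trend removed none of the 5 was past 2-fold (ICAM1 0.96, FOS 0.87, BCL3 0.57, SBNO2 0.43 and JUNB 0.23). JUNB, an AP-1 subunit, was at 12.0, 21.5 and 2.42 TPM in Hey and at 29.4, 68.9 and 10.7 TPM in SKOV3. It was lowest in the daughter cells of both lines, by -1.92 and -1.37 against parental cells. VEGFA was also called lower in both, by -1.36 and -1.005.

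Among the 13 acute phase genes, most were at or near 0 TPM. SAA1, a serum amyloid gene, was listed at 0 in the parental library of Hey, at 33.0 TPM in its PGCC library and at 6.36 TPM in its daughter library, and at 22.3, 31.5 and 61.9 TPM in those of SKOV3. SAA2, also listed at 0 in Hey parental cells, was at 8.87 TPM in Hey PGCCs. Their sequences are so alike that reads could have been exchanged between them. Of the 5 regulators of the IL6 gene or its mRNA, ZC3H12A, the RNase that degrades IL6 mRNA, was called higher in Hey PGCCs (1.21, from 6.18 to 15.6 TPM), where IL6 itself was highest. NFKBIZ, a cofactor for IL6 transcription, was at 33.6, 65.3 and 12.5 TPM in Hey and at 24.4, 18.4 and 49.1 TPM in SKOV3.

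**Figure D4:**
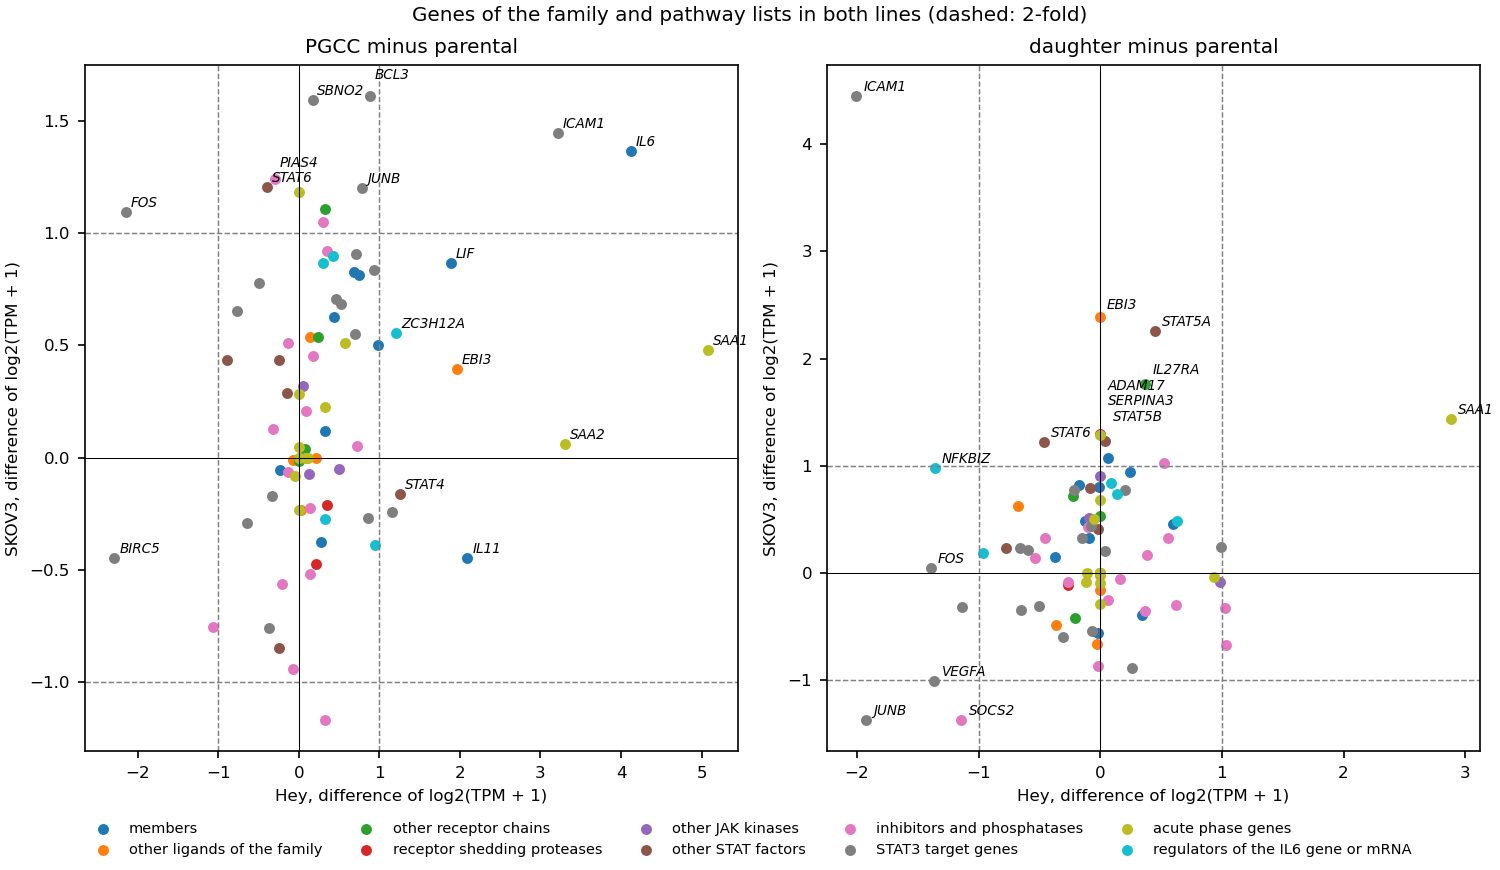
Difference of log2(TPM + 1) in Hey (x axis) against SKOV3 (y axis) for the 10 genes (dark blue) and the 74 further genes coloured by list, between PGCCs and parental cells (left) and daughter and parental cells (right), with genes past 1.2 in size in either line named and dashed lines at 2-fold. IL6 and ICAM1 are alone in being past 2-fold in the same direction in both lines on the left, and on the right ICAM1 stands at -2.003 in Hey and 4.45 in SKOV3.

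The genes closest in profile to IL6, LIF and SOCS3 were found by the Euclidean distance between log2(TPM + 1) values centred over the 6 libraries. The search was over the tested genes. Nearest to IL6 were H2BC4 (distance 1.14), TNFAIP6 (1.19), AC005062.1 (1.22), CXCL1 (1.41) and IL1RL1 (1.42). TNFAIP6, AC005062.1 and IL1RL1 entered the tested genes only through the Hey PGCC library, so their closeness to IL6 follows in part from that filter. They were at 6.81, 12.8 and 11.9 TPM there and at most 0.593, 0.339 and 0.231 TPM elsewhere. CXCL1, a neutrophil chemokine, was at 104, 705 and 65.3 TPM in Hey and at 109, 121 and 198 TPM in SKOV3, so it followed IL6 in Hey PGCCs more than in SKOV3. Nearest to LIF were DNAJB2 (0.466), CACFD1 (0.507), ZNF436-AS1 (0.536), ZDHHC11 (0.538) and FAM3C2 (0.542). Nearest to SOCS3 were CAB39L (0.289), NFE2L1 (0.314), MT1F (0.348), LY6G5B (0.351) and CRY2 (0.354). H2BC4 and FAM3C2 have near-identical copies in the genome, which makes their own values uncertain, and a profile over 6 libraries that share lines and states is a description only.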

How the data were processed

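Total RNA of 6 cell line libraries was sequenced by the authors. Reads were trimmed with fastp and quantified by the authors with salmon 0.14.1 on the human transcriptome (hg38), and TPM values per gene symbol were deposited. The annotation release, salmon's bias options and the step from transcripts to genes are not given in the sources used here. The columns sum to between 911825 and 920497 TPM. They hold no counts, so reads per gene are unknown and no counting interval can be given, although the study's methods give nearly equal summed mapped counts for the libraries.

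Groups were taken from the GEO labels. Differences of log2(TPM + 1) were computed within each line between states, and between lines within each state, and called at 2-fold. The spread across lines was fitted with limma 3.58.1 in R 4.3.3 (eBayes with trend, genes averaging 1 TPM or more, Benjamini-Hochberg adjustment). Other steps used Python 3.11.15, numpy 2.4.6, pandas 2.3.3 and statsmodels 0.14.6, and were tested on simulated data. Gene positions, GC content and length of the canonical transcript are from GENCODE 44 (GRCh38), joined by symbol, and 89.9% of the tested genes had them. The GC and length trend was subtracted after 2 lowess passes (fraction 0.3). Promoter windows are from RefSeq. The alternatives were a pseudocount of 0.1, a mean TPM of at least 1 or 5, median-ratio scaling, quantile normalization, removal of mitochondrial genes, 1.5-fold and 3-fold thresholds, and the trend removal. For limma they were no cell line term, the pseudocount of 0.1, all genes with a TPM above 0, a mean TPM of at least 5, median-ratio scaling and no trend.

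The members, lists and tests were chosen with earlier results of these data known. From the lists, the text draws on genes called alike in both lines and on the 2 with the largest difference per list and comparison with parental cells. OSM, CEBPD, FOS and PTPN1 were named after their values were seen. The 5 nearest profiles were taken for IL6, LIF and SOCS3.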

Additional observations from a re-analysis of the deposited data

Results flagged for a closer look

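For 12 pairs of differences the lines had opposite signs, with 1 library on each side, and none of these contrasts between lines was tested. The values below are the Hey difference minus the SKOV3 difference in log2(TPM + 1). For PGCCs against parental cells they were 2.54 for IL11 (2.09 in Hey, -0.45 in SKOV3) and 0.66 for LIFR. For daughter against parental cells they were -0.81 for IL6, 0.73 for IL6R, -0.62 for LIFR, -0.995 for OSMR, -0.52 for SOCS3 and -0.42 for JAK1. For daughter cells against PGCCs they were -0.81 for IL6ST, -1.27 for LIFR, -1.20 for OSMR and -0.63 for STAT3. The largest, that of IL11, rests on the Hey PGCC library, the only one in which IL11 passed 1.35 TPM. Some of the signs turned with the processing. For PGCCs against parental cells, LIFR in SKOV3 ran from -0.55 to 0.06 over the settings. For daughter against parental cells, IL6 in Hey ran from -0.14 to 0.06 and SOCS3 in SKOV3 from -0.28 to 0.23. In the comparison of daughter cells with PGCCs, IL6ST, LIFR, OSMR and STAT3 were lower in Hey and higher in SKOV3, and after removal of the GC and length trend the SKOV3 values were 0.25 for LIFR, 0.40 for OSMR, 0.015 for STAT3 and -0.20 for IL6ST, whose sign was then that of Hey.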

How the results depend on the processing

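Of the recomputed member differences between states, 290 kept their side of the 2-fold threshold and 10 did not, and no called difference changed sign. In PGCCs IL6 was called in both lines under every setting (3.98 to 4.27 in Hey, 1.29 to 1.74 in SKOV3), as were LIF (1.82 to 2.03) and IL11 (1.86 to 2.87) in Hey. The number of members called moved by over 1.5 times as follows. At 1.5-fold it was 6 in Hey PGCCs against parental cells, 5 in SKOV3 PGCCs, 1 in Hey daughter cells, 4 in SKOV3 daughter cells and 3 for SKOV3 daughter cells against PGCCs. At 3-fold it was 0 for each of the 3 SKOV3 comparisons of states, 2 for Hey daughter cells against PGCCs, and 0, 2 and 1 between lines in parental cells, PGCCs and daughter cells. With a pseudocount of 0.1 it was 2 in SKOV3 PGCCs, where IL6R was added at 1.15, and 2 in SKOV3 daughter cells, where IL11 was added at -1.07. With mitochondrial genes left out it was 2 in SKOV3 daughter cells, where STAT3 was added at 1.04. Median-ratio scaling and quantile normalization each gave 0 in SKOV3 daughter cells against parental cells and 2 between the lines in daughter cells (0 higher in Hey and 2 lower, and 1 and 1). A mean TPM of at least 5, which drops IL6R, gave 0 for SKOV3 daughter cells against PGCCs. GC and length removal gave 2 in SKOV3 PGCCs, 0 in SKOV3 daughter cells against parental cells and 2 between the lines in daughter cells, 1 higher and 1 lower in Hey. The count called over the 74 further genes stayed within 1.5 times its value in 59 recomputations and left that range in 22. Apart from the settings that act by their own construction, the cause was not tested. In limma, taking out cell line as the block pairing the libraries left 0 members at an adjusted p under 0.05 in all 3 comparisons (1, 0 and 1 at an unadjusted p under 0.05), and the other limma alternatives also gave 0, with smallest adjusted p values between 0.723 and 1. No library could be left out within a group, as each group has 1. The TPM values carry no read counts per gene, so the counting error of low members such as IL6R and IL11 could not be given.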
